A study of Mus musculus with 137 samples.

Results

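The comparison set the duodenal villus of mice that drank 180 ppm hexavalent chromium, Cr(VI), against the villus of mice that drank untreated water, both at the end of 90 days of exposure (study day 91). The members were chosen by the sample labels alone and were 5 exposed and 4 untreated libraries, 9 of the 66 villus and 71 crypt libraries of the series. All mice were female wild-type B6C3F1 mice, and Cr(VI) was given as sodium dichromate dihydrate. The libraries came from 71 mice, in 28 groups that combined compartment, 7 or 90 days, and 7 concentrations (0, 0.1, 1.4, 5, 20, 60 and 180 ppm). A pathologist cut the crypt region away from a fixed section and the villus tissue that remained was scraped off, so each library is a bulk sample of the epithelium together with the stroma, vessels and immune cells of the villus from 1 mouse. RNA was measured by TempO-Seq, in which pairs of detector oligonucleotides that bind side by side on a transcript are ligated, amplified and counted.

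The villus is covered by enterocytes that leave the crypt, move upward and mature, and genes of digestion and absorption are switched on and off along that path until the cells are shed at the tip. Intraepithelial lymphocytes sit between the enterocytes, and the core holds fibroblasts, macrophages, plasma cells, vessels and smooth muscle. Ingested Cr(VI) that is not reduced in the stomach enters cells through anion transporters and is reduced inside them, which consumes glutathione and other reductants.

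At 180 ppm, 58 of 76 ribosomal protein genes, 23 of 53 translation initiation factors, 13 of 23 cholesterol genes, 8 of 14 heat shock genes and 14 of 39 proteasome genes were higher than in the untreated villus. Lower were 13 of 23 brush border genes, 13 of 20 nutrient transporters, 11 of 25 fat absorption genes, 6 of 12 gluconeogenic genes, 15 of 30 antigen presentation genes and 7 of 16 T cell markers. In a model of all libraries of the series, 26365 of 30146 probes (19020 of 21450 genes) had enough counts to test. Of these genes, 3176 passed an adjusted p of 0.1 with at least 1 probe (edgeR quasi-likelihood test, Benjamini-Hochberg over probes), 2060 of them higher and 1131 lower at 180 ppm, with 15 counted in both directions through different probes. With 1 probe for each gene, the one with the highest total count, 9.97% of the genes tested were higher and 4.76% were lower. These shares are the background for every list below. Separately, 9.06% of genes had CPM values (counts scaled to an equal effective library size, in the usual CPM unit) that did not overlap between the 4 untreated and 5 exposed libraries, 6.36% higher and 2.7% lower at 180 ppm. Nothing beyond the mouse number separates these animals. The spread behind the edgeR p-values and SEs was estimated over all 28 groups and not in these 9 libraries alone. Crypt and villus libraries of the same mouse entered that estimate as separate samples. A fit of only the 9 libraries compared called 2287 of 10121 genes. In bulk tissue fewer cells of a type and less RNA per cell cannot be told apart.

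The 2 groups were not sequenced alike. Untreated libraries held 1667014 to 2678299 counts and exposed libraries 3030885 to 4574064 (exact two-sided permutation test of the means, p = 0.0159, adjusted over 4 measures 0.0317). Probes with at least 1 count numbered 14224.8 ± 1223.5 (SD, n = 4) in untreated and 17669.6 ± 1492.86 (n = 5) in exposed villi (exact permutation p = 0.0238, adjusted 0.0317). At an equal depth of 1463938 counts the numbers were 14162.5 ± 1178.34 and 17167.2 ± 1259.59 (exact permutation p = 0.0238, adjusted 0.0317), so the gap in probes detected remained at equal depth. When the 9 libraries were thinned to 1667014 counts and fitted alone, 2087 of 8902 genes passed, 1197 higher and 891 lower. The balance of directions depended on scaling: with DESeq2 size factors in place of TMM factors the fold changes shifted by a median of -0.25 on the log2 scale and 1277 genes were higher and 1750 lower. The part that the difference in detected probes plays in the results below was not tested.

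Markers of other cell types also varied between libraries. The summed CPM of 17 pancreatic acinar markers was 53.3, 6606, 46.0 and 64340 in the untreated libraries of mice 3, 5, 6 and 7, and 125, 54790, 105500, 98.6 and 1954 in the exposed libraries of mice 483, 484, 485, 488 and 490. Pancreatic RNA was thus high in mice 7, 484 and 485, in both groups. Without the libraries of 90 days in which these markers exceeded 10000 CPM, which left 3 untreated and 3 exposed villi, 1876 genes passed, 1300 higher and 576 lower. Summed smooth muscle markers ranged from 494 to 1646 CPM in untreated and from 576 to 945 in exposed villi, Paneth cell markers from 757 to 3778 and from 797 to 2639, and stem cell markers from 147 to 568 and from 210 to 373. These ranges overlapped. The sums of tip enterocyte markers did not, at 21210 to 44610 in untreated against 2456 to 16840 in exposed villi, although 18 general enterocyte markers summed to 61920 to 83850 and 32280 to 98020. The abundant Apoa4, given below with the fat absorption genes, made up a large part of the untreated tip sums. Of the 9 tip markers 4 fell (44.4% against a background of 4.76%), 5 did not pass, and 3 were lower without overlap (background 2.7%). Villin (Vil1), the actin bundler of the brush border, was at 5831 to 7831 CPM in untreated and 4592 to 6885 in exposed villi (adjusted p = 0.309), and at means of 4678 and 3929 CPM in untreated and exposed crypts.

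**Figure D1:**
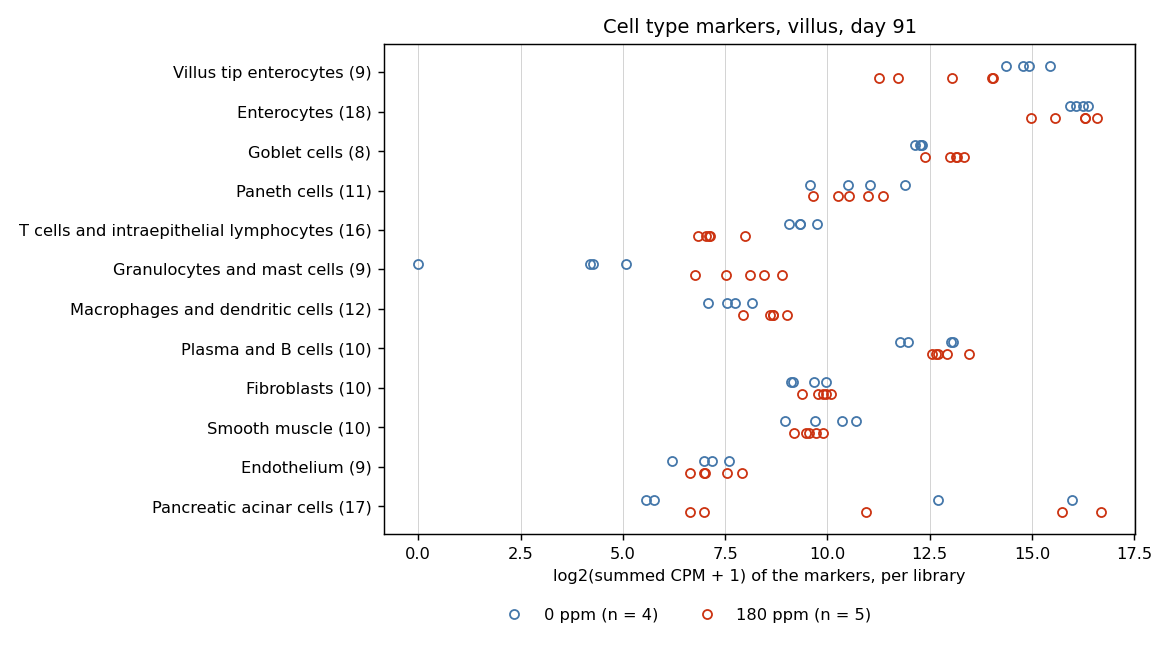
Summed CPM of cell type markers in each villus library at day 91, on the log2(summed CPM + 1) axis, with the number of markers in parentheses; circles are single libraries, blue for 0 ppm (n = 4) and red for 180 ppm (n = 5). The groups separate, lower at 180 ppm, for T cells and intraepithelial lymphocytes and for tip enterocytes, whose sum holds the abundant Apoa4. They separate, higher at 180 ppm, for goblet cells and, through Mcpt1 and Mcpt2, for granulocytes and mast cells. Pancreatic acinar markers are high in some libraries of both groups.

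The largest rise was that of Fosl1 (chromosome 19, 5447547 to 5455946, plus strand, GRCm38), which encodes Fra-1, a subunit of the AP-1 transcription factor. In the order of mice given above, which all lists of values keep, it had no counts in the 4 untreated libraries and 96.8, 187, 358, 66.6 and 75.8 CPM in the exposed ones. Against a limit of 3 counts per library, which is 1.31 CPM in the untreated group and covers counting error only because reads are PCR copies, the mean of 157 ± 122 CPM was at least 119-fold higher (adjusted p = 6.17e-11). In untreated villi 2.14% to 2.26% of detected probes had 3 or fewer counts, and their lower quartile was 15 to 17 counts. A transcript present but not captured can thus lie above this limit, here and wherever a fold is given as at least a value. Il1rl1 (chromosome 1, 40429570 to 40465415, plus strand), the receptor for interleukin-33, was at 18.9, 0, 0 and 1.91 CPM in untreated and 73.3, 270, 662, 287 and 189 CPM in exposed villi. Every exposed library was above every untreated library, with a log2 fold change of 5.79 ± 0.70 (SE; adjusted p = 4.88e-11). Mboat1, a lysophospholipid acyltransferase, went from 0, 0.527, 0 and 2.68 CPM to 76.7, 157, 292, 30.3 and 26.5 CPM (6.36 ± 0.91). Dmp1, a matrix phosphoprotein known from bone and dentin, was at 1.49 CPM in mouse 3 and at 0 in the other untreated libraries, and at 15.6 to 122 CPM in the exposed ones.

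Mcpt1, a protease of mucosal mast cells, was detected at 17.2 CPM in untreated mouse 7 only, and at 89.1, 426, 233, 157 and 218 CPM in exposed villi (5.40 ± 0.84, adjusted p = 1.96e-07). The reads of Mcpt1 may be shared with its close relatives. A further 7 of the 12 largest rises had no counts in any untreated library and means of 20.5 to 28.7 CPM at 180 ppm. These were Mmp12, the macrophage elastase (at least 21.8-fold), Phkg1, a catalytic subunit of phosphorylase kinase (at least 20.6-fold), Clec7a, the receptor for fungal beta-glucans (at least 20.1-fold), Adora2a, an adenosine receptor (at least 19.8-fold), Alppl2, an alkaline phosphatase (at least 17.3-fold), Utp14b, which takes part in ribosome assembly (at least 17-fold), and Smox, spermine oxidase (at least 15.6-fold). Mice differed at 180 ppm, with Mmp12 at 4.07 CPM in mouse 483 and 31.0 to 39.9 CPM in the other exposed mice.

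The largest fall was that of Ada, adenosine deaminase, a marker of the villus tip. It was at 624, 285, 89.3 and 59.3 CPM in untreated and at 0, 0.931, 0, 12.9 and 4.23 CPM in exposed villi, with no overlap (-6.09 ± 0.71, adjusted p = 6.25e-12). Pck1 (chromosome 2, 173153048 to 173159273, plus strand), the cytosolic phosphoenolpyruvate carboxykinase of gluconeogenesis, was at 865, 1401, 725 and 229 CPM in untreated and 6.23, 9.31, 7.60, 22.4 and 33.3 CPM in exposed villi (-5.64 ± 0.59, adjusted p = 4.55e-13). It had the smallest adjusted p of all probes. Dnase1, a secreted nuclease, was at 6.51 to 33.4 CPM in untreated villi and had no counts in any exposed library, at least 25.1-fold lower.

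Sectm1b (chromosome 11, 121053458 to 121063569, minus strand) was the most abundant of the 12 largest falls, at 1549, 1845, 2085 and 1342 CPM in untreated and 37.4, 5.35, 15.9, 320 and 131 CPM in exposed villi (-4.07 ± 0.66). Ceacam20, an adhesion molecule of enterocyte microvilli, was at 253, 250, 339 and 254 CPM against 14.4, 6.05, 9.68, 39.2 and 12.1 CPM (-4.06 ± 0.53). Transporters and metabolic enzymes made up most of the others: the nucleoside transporter Slc28a2 (-4.39 ± 0.87), the glycerol channel Aqp7 (-4.40 ± 0.79), Ugt2b38, a glucuronosyltransferase whose probes may be shared within its family (-4.67 ± 0.79), Aspa, aspartoacylase (-4.31 ± 0.75), Lct, lactase (-4.09 ± 0.91), Unc93a (-4.81 ± 0.97) and Ttll2 (-3.97 ± 0.75). Exposed mouse 488 had the highest level of Ada, Sectm1b, Ceacam20, Aqp7, Slc28a2 and Ugt2b38 among the exposed mice.

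**Figure D2:**
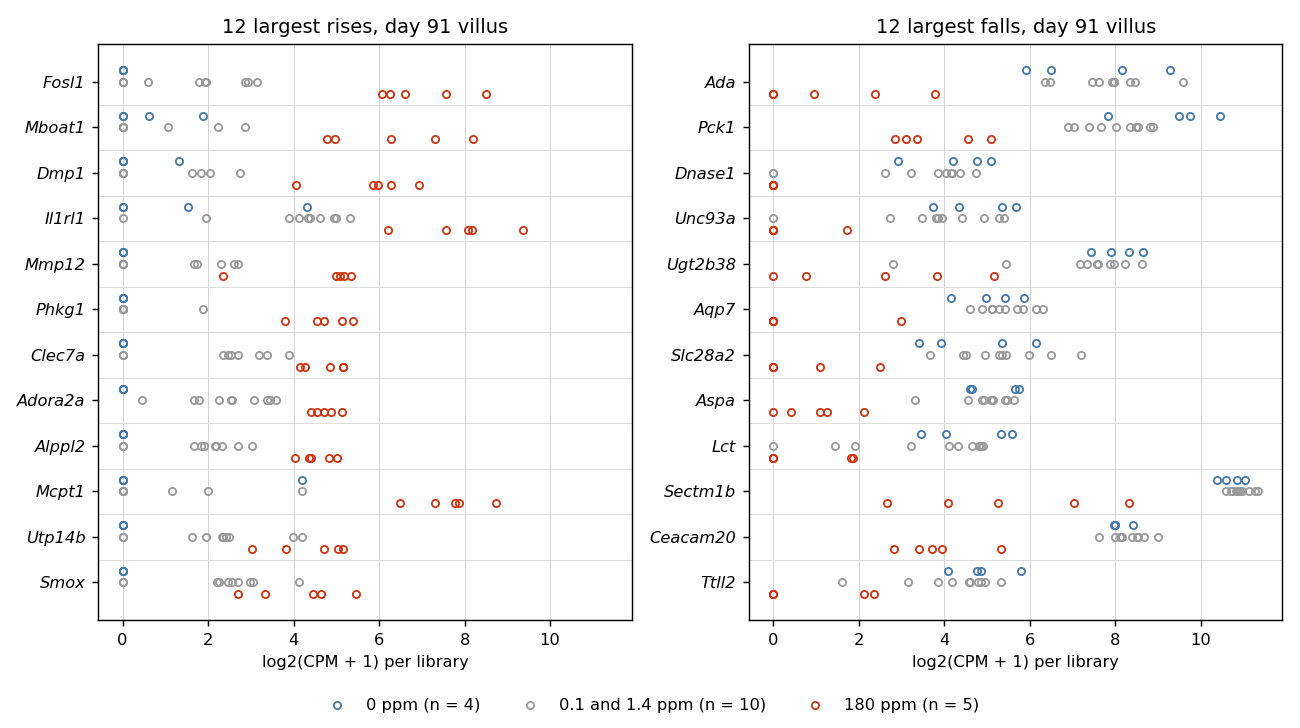
The 12 largest rises and 12 largest falls in villus RNA at 180 ppm, by library, on a log2(CPM + 1) axis; circles are blue for 0 ppm (n = 4), grey for 0.1 and 1.4 ppm together (n = 10) and red for 180 ppm (n = 5). Blue and red circles do not overlap for any gene, which the choice of genes required. The grey circles lie mostly near the blue ones for the falls, though mostly below them for Pck1, and between blue and red for several of the rises. Grey and red circles do not overlap for 9 of the 12 rises and 7 of the 12 falls.

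Translation was the group with the most rises. Of 76 cytosolic ribosomal protein genes tested, 58 rose and 0 fell, with a median log2 fold change of 1.42 against 0.14 over all genes. With genes that had no counts in 1 group placed at their lower bound, the median was 1.40. Rps12 was at 82.7, 109, 92.3 and 253 CPM in untreated and 955, 679, 1434, 458 and 640 CPM in exposed villi (2.62 ± 0.33, adjusted p = 1.36e-09). Rpl4, a protein of the large subunit, was at 464, 594, 537 and 1205 CPM against 3356, 2322, 4489, 2195 and 2675 CPM (2.10 ± 0.26). Rpl19 changed by 2.06 ± 0.24. In each of these 3 genes the exposed libraries lay above all untreated ones, and untreated mouse 7 was the highest untreated library. Ribosomal protein genes have many processed pseudogenes of near-identical sequence, so reads of single members may be shared. Of 53 translation initiation factors, 23 rose and 0 fell (median 0.77), among them Eif5, which triggers GTP hydrolysis at the start codon (2.12 ± 0.30), Eif5a (1.52 ± 0.23), Eif2s2, a subunit of eIF2 (1.84 ± 0.28), and Eif1a (1.87 ± 0.29).

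Promoters of many ribosomal protein genes carry binding sites of ETS family factors. The letters CCGGAAG, searched on both strands from 250 bases before to 50 bases after the start in RefSeq promoters (GRCm38.p6), were found in 21 of the 56 members that had a promoter entry, 37.5%, against 9.93% of 27025 genes. Of the 41 members that rose and had an entry, 15 held it, as did 6 of the rest of the 56, which did not pass the test. The letters were thus not confined to members that rose. Stretches of 80 bases are shown for 3 members that rose, with the match in capitals (here on the reverse strand, CTTCCGG):
Rpl19, chr11:98026623-98026702, plus strand: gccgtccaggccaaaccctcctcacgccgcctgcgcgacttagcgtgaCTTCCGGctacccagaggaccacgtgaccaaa
Rpl27a, chr7:109518978-109519057, plus strand: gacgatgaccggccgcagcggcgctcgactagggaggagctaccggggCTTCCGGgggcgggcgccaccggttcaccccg
Rpsa, chr9:120127530-120127609, plus strand: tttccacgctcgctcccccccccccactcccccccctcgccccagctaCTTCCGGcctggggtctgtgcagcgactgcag
A match of letters is a description of the sequence and not evidence of binding. Rpl27a was at 139, 33.8, 127 and 281 CPM in untreated and 546, 486, 733, 396 and 486 CPM in exposed villi, with no overlap. Rpsa overlapped between groups in mouse 488, at 183 CPM against 259 CPM in untreated mouse 7.

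Of 23 genes of cholesterol synthesis and uptake, 13 rose and 0 fell, with a median of 1.28. Fdft1, squalene synthase, was at 62.3, 33.8, 38.7 and 22.9 CPM in untreated and 193, 238, 374, 137.5 and 119 CPM in exposed villi, without overlap (2.42 ± 0.35, adjusted p = 4.96e-08). The enzymes Fdps (2.54 ± 0.45) and Msmo1 (1.52 ± 0.28) also rose, as did Hmgcs1 (2.15 ± 0.43) and Srebf2 (1.29), the transcription factor of this pathway. Fdps was at 16.8 CPM in exposed mouse 488, within the untreated range of 8.43 to 23.7 CPM. The letters TCACNCCAC, a core of the sterol regulatory element, were found in the promoter window of 1 of 15 members with an entry, Hmgcs1, against 1.44% of all genes (match in capitals):
Hmgcs1, chr13:119690168-119690247, plus strand: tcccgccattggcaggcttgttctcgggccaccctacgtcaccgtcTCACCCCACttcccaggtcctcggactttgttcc

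Chaperones rose as well. Among 14 heat shock protein genes and their cochaperones, 8 rose and 0 fell (median 1.26). The rises numbered 5 without exposed mouse 483 and 4 with the log10 total count as a covariate. Hsph1, an HSP110 chaperone, was at 7.48, 8.44, 48.7 and 132 CPM in untreated and 273, 233, 286, 160 and 238 CPM in exposed villi (2.21 ± 0.39, adjusted p = 6.39e-06). Hspa8, the constitutive HSP70, was at 128, 167, 175 and 391 CPM against 609, 766, 883, 327 and 618 CPM (1.56 ± 0.26), with overlap between untreated mouse 7 and exposed mouse 488. Bag3, a cochaperone of HSP70, changed by 1.30 ± 0.25 and Hspd1, the mitochondrial HSP60, by 1.601 ± 0.41. Hspd1 and Hspe1, which encodes the partner of HSP60, lie head to head on chromosome 1. The heat shock element, searched on both strands as GAA, TTC and GAA with 2 free bases between neighbours, was found in the promoter windows of 3 of the 10 members with an entry (Hspd1, Hspe1 and Hsph1) against 0.662% of all genes. The Hspd1 window shows 2 overlapping matches, at 55088059 to 55088071 and 55088064 to 55088076, which are also those of Hspe1 (matches in capitals):
Hspd1, chr1:55088034-55088113, minus strand: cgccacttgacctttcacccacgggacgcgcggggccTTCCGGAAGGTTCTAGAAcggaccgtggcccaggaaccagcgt
All 3 of these genes rose, but Hspe1 overlapped between groups, at 4.99 to 37.9 CPM in untreated and 23.1 to 75.9 CPM in exposed villi.

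In the endoplasmic reticulum, 8 of 23 genes of the unfolded protein and amino acid response rose and 1 fell, with a median of 0.60, or 0.37 with genes without counts in 1 group at their bound. Calr, the calcium-binding chaperone calreticulin, was at 146, 80.2, 233 and 300 CPM in untreated and 567, 565, 1389, 747 and 576 CPM in exposed villi (2.004 ± 0.34). Hspa5, the chaperone BiP, was at 1147 to 1665 CPM against 1909 to 3722 CPM (1.06 ± 0.19), and Pdia6, a disulfide isomerase, changed by 2.05 ± 0.39. Atf5 rose by 1.89 ± 0.41 with overlap between groups, and the gene that fell was Trib3 (-1.54), itself a target of this response, named after its value was seen and not past the threshold without mouse 3 or mouse 485. Of 39 proteasome genes, 14 rose and 2 fell (median 0.66). Psmc1, Psma3 and Psmd1 of the constitutive particle changed by 1.30 ± 0.22, 1.65 ± 0.30 and 1.66 ± 0.31. Both genes that fell, Psmb10 (-1.56 ± 0.26) and Psmb9 (-1.40, named after its value was seen), encode subunits of the immunoproteasome, which replaces constitutive subunits under interferon-gamma. Psmb8, which encodes another subunit of the immunoproteasome, did not pass the test.

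Genes of the NRF2 and glutathione list, the antioxidant response, were split: 9 of 30 rose and 2 fell, with a median of 0.65, or 0.52 with bounds. Gsta2, a glutathione S-transferase whose probe may be shared with Gsta1, was at 170, 81.8, 527 and 337 CPM in untreated and 2222, 1170, 2635, 1442 and 2066 CPM in exposed villi (2.76 ± 0.45, adjusted p = 1.48e-06). Gsr, which regenerates glutathione, changed by 1.67 ± 0.28, Prdx1, a peroxiredoxin, by 1.23 ± 0.25, and Gclc, the catalytic subunit of the rate-limiting step of glutathione synthesis, by 1.83 ± 0.38. Ephx1, microsomal epoxide hydrolase, fell from 66.5 to 182 CPM to 7.68 to 39.2 CPM (-2.70 ± 0.41), and Txn1, thioredoxin, fell by 0.99 (named after its value was seen). Of 11 metallothionein and zinc genes, 1 rose, 2 fell and 8 did not pass, which is 9.09% and 18.2% against backgrounds of 9.97% and 4.76%. Mt2 rose (2.20 ± 0.75) and the zinc importers Slc39a14 (-0.80 ± 0.29) and Slc39a4 (-0.93 ± 0.37) fell, all 3 with adjusted p between 0.0371 and 0.0933. Mt2 did not pass without mouse 3, 5 or 485, and neither importer passed without mouse 6 or 485. Of 14 iron genes, 5 fell and 2 rose, Tfrc and Ftl1 (the latter named after its value was seen), of which 1 rise was left when mouse 3, 5, 6, 483, 484, 488 or 490 was left out. Slc46a1, a carrier of folate and heme, was at 201, 186, 144 and 132 CPM in untreated and 23.2, 19.3, 5.53, 39.9 and 11.3 CPM in exposed villi (-3.02 ± 0.48). Heph, the ferroxidase of iron export (-1.30 ± 0.30), and Aco1 (-1.41 ± 0.39) fell without overlap. The transferrin receptor Tfrc rose (1.89 ± 0.52) but overlapped, as untreated values were 72.8, 4.75, 6.51 and 88.4 CPM.

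Of 25 hypoxia targets, 9 rose and 2 fell, with a median of 0.41, or 0.23 with bounds. Ero1l, an oxidase of the endoplasmic reticulum, was at 152 to 264 CPM in untreated and 505 to 846 CPM in exposed villi (1.79 ± 0.25), Slc2a1, the glucose transporter GLUT1, rose by 3.18 ± 0.73 and Hif1a by 1.38 ± 0.30. Mxi1 (-1.59 ± 0.28) and Pfkfb4 (-1.53 ± 0.28), known HIF targets, fell without overlap. In oxidative phosphorylation 25 of 79 genes rose and 0 fell, with a smaller median of 0.40. The ATP synthase subunits Atp5a1 and Atp5c1 changed by 1.09 ± 0.19 and 1.29 ± 0.24, and Uqcrb and Uqcrc2 of complex III by 1.27 ± 0.25 and 1.32 ± 0.27.

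Falls were most frequent in digestion and absorption. Of 23 brush border genes, 13 fell and 0 rose, with a median of -1.20, and of 20 transporters of sugars, amino acids and ions, 13 fell and 0 rose, with a median of -1.37. Mgam, maltase-glucoamylase, was at 5927, 6719, 6120 and 3869 CPM in untreated and 1709, 946, 749, 984 and 744 CPM in exposed villi (-2.46 ± 0.27, adjusted p = 6.38e-12). Angiotensin-converting enzyme Ace was at 415, 464, 312 and 211 CPM against 31.1, 15.6, 12.8, 60.3 and 80.04 CPM (-3.12 ± 0.46). Dpp4, dipeptidyl peptidase 4, changed by -3.15 ± 0.47. Among transporters, Slc6a20a, which carries proline, was at 462, 487, 402 and 174 CPM in untreated and 52.7, 15.8, 21.4, 90.98 and 78.9 CPM in exposed villi (-2.87 ± 0.36, adjusted p = 6.03e-10). Slc6a19, the carrier of neutral amino acids, changed by -2.30 ± 0.32, Slc15a1, the peptide transporter PEPT1, by -2.94 ± 0.43, and Slc9a3, the sodium-proton exchanger, by -2.71 ± 0.46. These 7 genes did not overlap between groups. Not every enterocyte gene moved this way: Fabp2, an abundant fatty acid binding protein, was at 20800 to 29420 CPM in untreated and 16410 to 63730 CPM in exposed villi (0.77 ± 0.33, adjusted p = 0.132), and intestinal alkaline phosphatase Alpi was at 2353 to 2786 against 1398 to 2759 CPM (adjusted p = 0.608).

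Fat handling was divided. Of 25 genes of fat absorption and lipoproteins, 11 fell and 4 rose (median -0.70), with 2 rises without mouse 5 or mouse 485. Apob, the structural protein of chylomicrons, was at 950, 771, 554 and 408 CPM in untreated and 140, 88.9, 56.0, 184 and 153 CPM in exposed villi (-2.42 ± 0.34, adjusted p = 1.81e-08). Apoc3 (-2.65 ± 0.46), the sterol exporter Abcg5 (-2.49 ± 0.40) and Apoa4, at 11930 to 28670 against 1127 to 6873 CPM (-2.22 ± 0.46), also fell without overlap. In contrast Plin2, the coat protein of lipid droplets, rose from 154, 147, 233 and 304 CPM to 896, 849, 1027, 730 and 856 CPM (2.05 ± 0.27, adjusted p = 5.36e-09). The other 3 that rose, named after their values were seen, encode enzymes that activate or esterify fatty acids: Acsl3 (2.39), Acsl5 (1.09) and Gpat3 (0.85). Of 12 genes of gluconeogenesis and fructose metabolism, 6 fell and 0 rose (median -0.96), with Fbp1 at -2.38 ± 0.44, G6pc at -2.56 ± 0.56 and Mlxipl, a carbohydrate-responsive transcription factor, at -1.68 ± 0.32 beside Pck1. Of 24 genes of fatty acid oxidation, 4 rose (2 without mouse 5) and 4 fell (2 without mouse 6). In drug metabolism 7 of 37 fell, including Cyp2b10, at 486 to 959 CPM in untreated and 3.46 to 216 CPM in exposed villi (-2.97 ± 0.55), and Cyp3a13 (-1.83 ± 0.32). Abcb1a, the drug efflux pump P-glycoprotein, was the 1 that rose (1.97 ± 0.31). Cyp3a probes may be shared within that family.

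**Figure D3:**
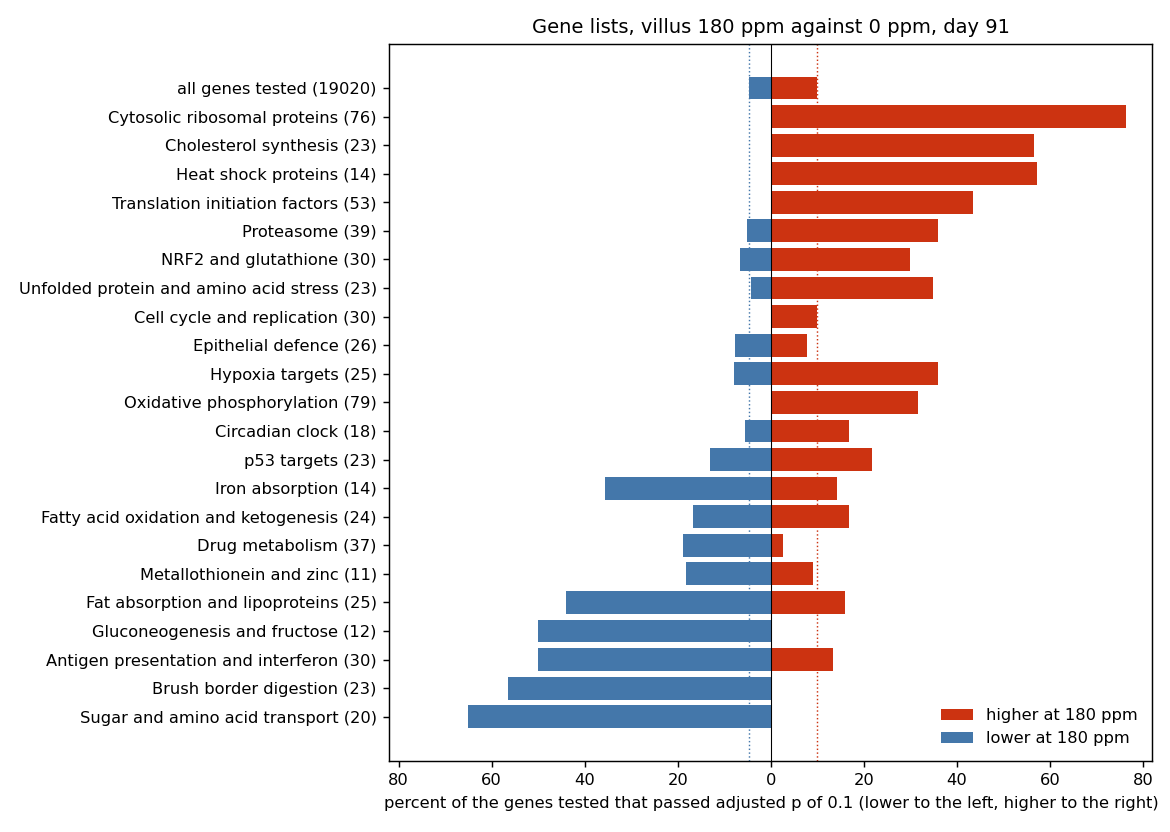
Share of the tested genes of each list (number in parentheses) that passed an adjusted p of 0.1 in the villus at 180 ppm against 0 ppm; red bars to the right are genes higher and blue bars to the left genes lower at 180 ppm. Dotted lines mark the shares over all 19020 genes tested (9.97% higher, 4.76% lower), and ribosomal proteins reach the farthest to the right and sugar and amino acid transport the farthest to the left.

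Of 30 antigen presentation and interferon genes, 15 fell and 4 rose, with a median of -1.01. Without untreated mouse 6 the falls numbered 9, without the libraries high in pancreatic markers 8, and the rises numbered 2 without mouse 3, 5, 483 or 485. Irf1, an interferon-induced transcription factor, was at 767, 719, 858 and 716 CPM in untreated and 183, 225, 165, 188 and 230 CPM in exposed villi (-1.95 ± 0.25, adjusted p = 1.12e-09). Tap2, part of the peptide transporter for class I molecules (-2.80 ± 0.42), Tapbp, which links that transporter to class I (-2.43 ± 0.41), and the class I gene H2-D1, whose reads may be shared with other H2 genes (-2.15 ± 0.34), fell without overlap. The 4 that rose, named after their values were seen, were Ifitm3 (1.80), Gbp2 (2.24), Gbp3 (0.99) and Ifi44 (1.42), all known as interferon-inducible. Gbp2 was at 3.49, 4.75, 12.3 and 8.80 CPM in untreated and 25.4, 31.0, 42.5, 22.4 and 69.6 CPM in exposed villi, while B2m, the light chain of class I, went the other way, from 261, 395, 375 and 268 CPM to 101, 88.9, 52.2, 215 and 226 CPM. The interferon-stimulated response element, searched on both strands as GAAA, 2 free bases and GAAA, was found in 9 of 23 members with a promoter entry, 39.1%, against 3.99% of all genes. It was present in 3 that rose, 1 that fell and 5 that did not pass the test. The stretches of 1 that fell and 2 that rose are shown with matches in capitals (on the reverse strand in Gbp2 and Gbp3):
B2m, chr2:122147503-122147582, plus strand: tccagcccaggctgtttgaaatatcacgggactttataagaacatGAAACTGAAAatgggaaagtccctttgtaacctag
Gbp2, chr3:142620559-142620638, plus strand: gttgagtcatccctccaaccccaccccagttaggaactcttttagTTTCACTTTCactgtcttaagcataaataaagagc
Gbp3, chr3:142559960-142560039, plus strand: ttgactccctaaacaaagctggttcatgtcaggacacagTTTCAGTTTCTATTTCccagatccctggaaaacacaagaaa

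Immune cell markers moved in different directions. Of 16 markers of T cells and intraepithelial lymphocytes, 7 fell and 0 rose, and their summed level was 530 to 857 CPM in untreated and 114 to 251.4 CPM in exposed villi. Gzma, granzyme A, was at 312, 312, 385 and 296 CPM against 39.1, 38.4, 51.8, 37.6 and 103 CPM (-2.58 ± 0.40, adjusted p = 2.77e-07), and the chemokine Ccl5 and the T cell receptor subunit Cd3g changed by -3.41 ± 0.51 and -2.49 ± 0.55. Itgae, the integrin that holds lymphocytes in the epithelium, was at 17.4 to 79.7 CPM in untreated and 26.6 to 55.2 CPM in exposed villi (adjusted p = 0.662). Among 9 granulocyte and mast cell markers, the mast cell proteases Mcpt1 and Mcpt2 rose and 0 fell, and the sum was 0 to 32.5 CPM in untreated and 108 to 473 CPM in exposed villi. The other 7 markers summed to 0 to 18.4 and 6.92 to 15.6 CPM, which overlap, a split made after the values were seen. Mcpt2 was at 5.36 CPM in untreated mouse 7 only, and at 8.62, 33.5, 103, 18.8 and 46.8 CPM in exposed villi (4.34 ± 1.02). Cpa3, another mast cell protease, was at 0 to 4.49 CPM against 2.25 to 7.68 CPM and did not pass the test. Of 12 macrophage and dendritic cell markers, Lyz2 (2.29 ± 0.71), Cd68 (2.45) and C1qb (0.98 ± 0.32) rose, with Cd68 named after its value was seen. Without untreated mouse 7, 1 of these 12 passed, and without all libraries high in pancreatic markers 0 passed, while 6 of the T cell markers and both mast cell proteases did. Among plasma and B cell markers, Jchain rose (1.59 ± 0.38) and Igha did not pass the test (adjusted p = 1.0).

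For fibroblasts, 4 of 10 markers rose, Pdgfra (2.67 ± 0.35), Col6a2 (1.84), Col3a1 (1.31 ± 0.32) and Col1a1 (1.06 ± 0.32), and Fbln1 fell (-1.17 ± 0.28), Col6a2 being named after its value was seen. Of 9 endothelial markers 0 passed in the edgeR test, 0 had an unadjusted p under 0.05, and 0 passed in DESeq2. The 4 smooth muscle markers that fell, named after their values were seen, were Cnn1 (-1.83), Myh11 (-1.45 ± 0.46), Actg2 (-1.46) and Acta2 (-1.55). Their libraries overlapped, and 2 of them fell without mouse 5 and 1 without mouse 7. Summed goblet cell markers were at 4509 to 5108 CPM in untreated and 5381 to 10370 CPM in exposed villi, without overlap, and at 4110 to 11050 CPM at the low concentrations. Goblet cell genes Spink4 (1.69 ± 0.32) and Fcgbp (1.21 ± 0.30) rose, Ccl6 fell (-2.27, named after its value was seen), and the abundant Zg16 did not pass the test, at 2574 to 3322 CPM in untreated and 2677 to 6257 CPM in exposed villi. Of Paneth cell markers, Defa3 (-1.66 ± 0.55) and Mmp7 (-2.28, named after its value was seen) fell, and Defa24, Defa22 and Lyz1 had adjusted p of 0.876 or more. Without untreated mouse 7, 0 Paneth cell markers fell. Alpha-defensin probes may be shared within the family.

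Of 23 p53 targets, 5 rose and 3 fell, which is 21.7% and 13% against backgrounds of 9.97% and 4.76%, with a median of 0.11. Mdm2, the ubiquitin ligase that degrades p53, was at 5.48, 3.69, 20.3 and 17.98 CPM in untreated and 46.0, 27.5, 53.6, 45.8 and 64.0 CPM in exposed villi (1.86 ± 0.43, adjusted p = 5.67e-04). The antiproliferative Btg2 went from 236, 190, 138 and 142 CPM to 42.9, 30.5, 25.2, 36.9 and 51.0 CPM (-2.22 ± 0.34). Of 30 cell cycle and replication genes, 3 rose, the replication licensing factor Cdc6 (3.30 ± 1.07), the helicase subunit Mcm2 (1.84 ± 0.62) and cyclin E1, Ccne1 (1.89 ± 0.74). That share of 10% is close to the background of 9.97%. The proliferation marker Pcna was at 48.9 to 91.3 CPM in untreated and 66.4 to 133 CPM in exposed villi (adjusted p = 0.123). Without untreated mouse 7, one of the libraries high in pancreatic markers, 14 of the 30 rose (median 1.72), without mouse 6 1 rose, and without all such libraries 8 rose. Of 26 epithelial defence genes, 2 rose and 2 fell (0 fell without mouse 6, and 1 without mouse 3, 5, 484, 485 or 490). These shares, 7.69% in each direction, compare with backgrounds of 9.97% higher and 4.76% lower. Of the 26, 10 had no counts in at least 1 group. Sprr1a, a protein of the cornified envelope, had no counts in untreated villi and 9.23 to 42.4 CPM in exposed villi (at least 15.3-fold), and the transmembrane chemokine Cxcl16 changed by 1.32 ± 0.29. Pigr, which carries immunoglobulin A across the epithelium, fell (-1.08 ± 0.33). Of 18 clock genes, 3 rose, 1 fell and 14 did not pass, which is 16.7% and 5.56% against 9.97% and 4.76%. The gene that fell was the repressor Nr1d1, at 110, 45.9, 5.36 and 21.4 CPM in untreated and 9.34, 8.38, 0, 2.64 and 3.38 CPM in exposed villi (-2.98 ± 0.53). Bhlhe40 (1.34 ± 0.28) and Clock (1.47 ± 0.34) were among those that rose. 

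Because the untreated villi had fewer detected probes, the same exposed villi were also set against the 10 villi of 0.1 and 1.4 ppm at day 91, which come from other mice and held 2723703 to 4216064 counts. The gap in detected probes was not absent here, at 13962 to 17055 (median 15989.5) in low-dose and 15157 to 18947 (median 18210) in exposed villi. Pancreatic markers exceeded 10000 CPM in 4 of 5 villi at 0.1 ppm, 0 of 5 at 1.4 ppm and 2 of 5 at 180 ppm. In that comparison 3708 genes passed, 2456 higher and 1262 lower at 180 ppm, and the background over 1 probe for each gene was 11.8% higher and 5.83% lower. All 12 of the largest rises and all 12 of the largest falls passed in the same direction in edgeR, and in DESeq2 Mmp12 did not (adjusted p = 0.217). These genes were chosen on the exposed libraries that both comparisons share. Of them, 9 of the rises and 7 of the falls had no overlap with the 10 low-dose libraries. Over all 19020 genes tested, 526 were higher and 327 lower without such overlap. The size differed for genes without counts in untreated villi: Fosl1 was at 0 to 7.82 CPM at the low concentrations (5.50 ± 0.51), Adora2a at 0.362 to 11.0 CPM (2.12 ± 0.47), Clec7a at 0 to 13.8 CPM (2.28 ± 0.48) and Smox at 0 to 16.5 CPM (1.96 ± 0.49). For Pck1 the low-dose villi, at 118 to 471 CPM, lay mostly below the untreated ones, and the fold change was -4.11 ± 0.53.

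Against the low concentrations, 70 of 76 ribosomal protein genes and 30 of 53 initiation factors rose, 13 of 23 cholesterol genes and 8 of 14 heat shock genes rose, and 0 of any of these fell. For brush border genes and for transporters, 17 of 23 and 14 of 20 fell, and 15 of 30 antigen presentation genes fell and 1, Ifitm3, rose (1.07), while Gbp2 and Gbp3 were at 0.19 (adjusted p = 0.858) and -0.02 (adjusted p = 1.0). Other lists differed between the comparisons. Of the NRF2 and glutathione list 8 rose and 5 fell (median 0.13 against 0.65 with 0 ppm), and of hypoxia targets 6 rose and 5 fell. In drug metabolism 14 of 37 fell, compared with 7 against 0 ppm. The macrophage list had 2 markers that rose and a median of 0.08, compared with 0.89. Cell cycle genes differed between the comparisons, with 14 of 30 higher against the low concentrations. Of the 10 smooth muscle markers 0 passed. Of the Paneth cell markers 2 rose, Lyz1 (1.15) and Pla2g2a (1.64, named after its value was seen), and 0 fell, with a median of 0.75 compared with -0.42 against 0 ppm. Ghrl, ghrelin, had fallen against 0 ppm (-1.88 ± 0.45), and its change against the low concentrations was -0.27 (adjusted p = 0.757).

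Against the 5 villi of 60 ppm, the next lower concentration, 0 of 19020 genes passed in the edgeR test (0% of genes, smallest adjusted p = 0.133), with 1076 genes at an unadjusted p under 0.05 (4.31% with 1 probe for each gene). DESeq2 called 19. Fosl1 was at 119 ± 56.6 CPM at 60 ppm and 157 ± 122 CPM at 180 ppm (difference on the log2 scale 0.39, adjusted p = 0.986), and Sectm1b at 100.2 ± 63.9 and 102 ± 132 CPM. These tests do not show that the 2 concentrations were alike.

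Group means over the 7 concentrations are given for the genes plotted. Il1rl1 averaged 5.21, 12.8, 26.3, 25.8, 123, 218 and 296 CPM from 0 to 180 ppm. Fdft1 averaged 39.4, 52.1, 56.0, 68.3, 99.9, 167 and 212 CPM, and Rpl4 700, 860, 634, 1059, 1653, 2745 and 3007 CPM. Plin2 stayed between 203 and 287 CPM up to 5 ppm and was at 631, 738 and 871 CPM at 20, 60 and 180 ppm. Among genes that fell, Sectm1b averaged 1705 to 2196 CPM up to 5 ppm and 466, 100.2 and 102 CPM above it. Mgam was at 5659, 6646, 4573 and 4618 CPM up to 5 ppm and at 1988, 1474 and 1026 CPM above. Pck1 had lower means from 0.1 ppm on, with 805 CPM at 0 ppm, 353, 218 and 201 CPM at 0.1, 1.4 and 5 ppm, and 22.5, 13.5 and 15.8 CPM above. Its levels at 0.1, 1.4 and 5 ppm were not tested against 0 ppm. Irf1 went from 765 CPM at 0 ppm to 663, 476, 248 and 198 CPM at 5, 20, 60 and 180 ppm, and Gzma from 326 CPM at 0 ppm to 571 CPM at 5 ppm and 54.0 CPM at 180 ppm. These are group means over 4 or 5 libraries. The libraries of 60 and 180 ppm overlapped in all 10 genes plotted, and where neighbouring concentrations did not overlap the step lay between 5 and 60 ppm, except for Mgam between 0.1 and 1.4 ppm.

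**Figure D4:**
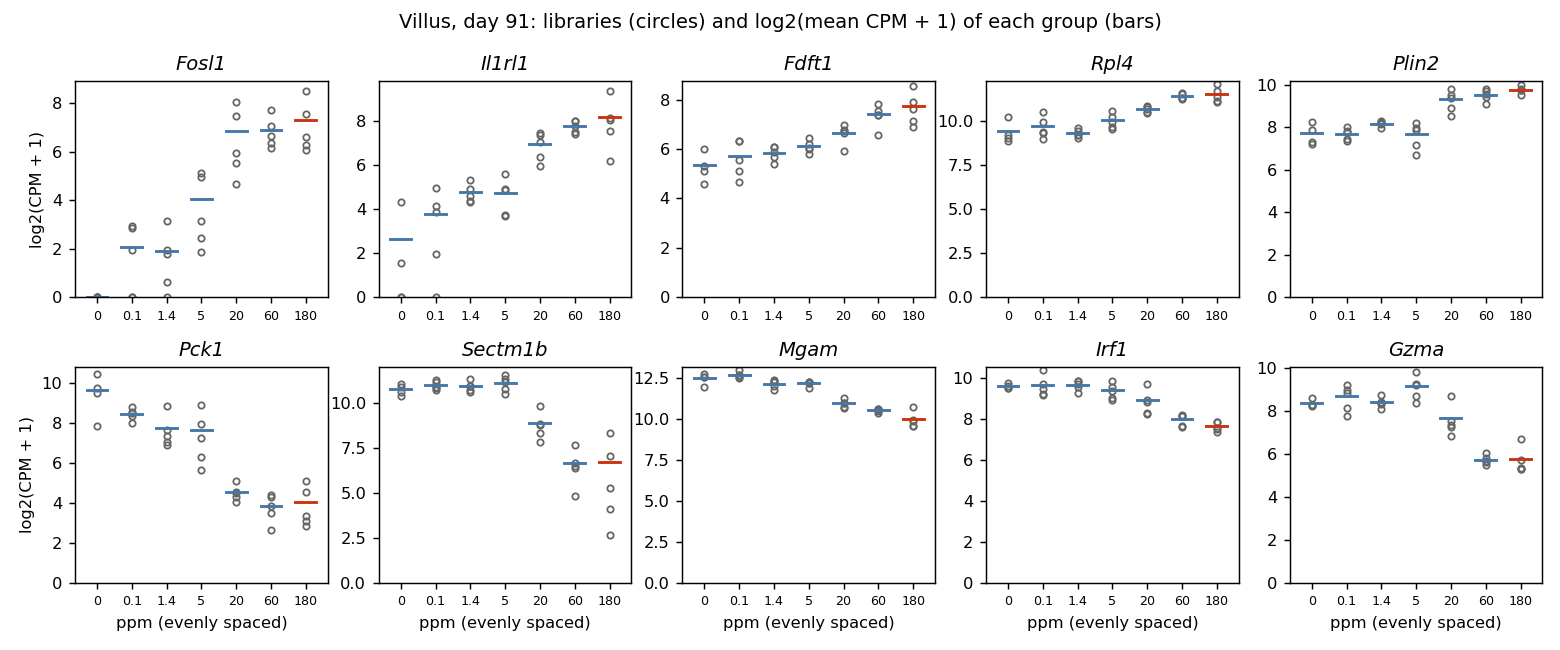
Villus RNA at day 91 over the 7 concentrations (evenly spaced, in ppm) for 10 genes on a log2(CPM + 1) axis; circles are libraries (4 at 0 ppm, 5 at each other concentration) and bars are log2 of the group mean plus 1, red at 180 ppm. Sectm1b and Plin2 differ little up to 5 ppm, Pck1 is already lower at 0.1 to 5 ppm than at 0 ppm, and values at 60 and 180 ppm overlap in each gene.

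The crypts of the same mice (5 at each concentration, 4 of the untreated ones with a villus library) served to test whether the effect of 180 ppm differed between compartments. The difference of effects passed for 56 genes, 51 with a more positive and 5 with a more negative change in the villus, which is 0.263% of genes with 1 probe each. With the mouse as a block in a fit of these 19 libraries, 20 genes passed, and without the libraries high in pancreatic markers 0 passed. All genes in this comparison were named after their values were seen. The 2 smallest adjusted p-values were those of Mpeg1, a pore-forming protein of macrophages, and Pdgfra, the receptor of villus fibroblasts. Mpeg1 was at 256, 293, 322 and 228 CPM in untreated and 593, 782, 1047, 722 and 848 CPM in exposed villi, against 249 ± 56.2 and 190 ± 47.3 CPM in untreated and exposed crypts (n = 5 each). Its villus effect exceeded the crypt effect by 1.92 ± 0.31 on the log2 scale (adjusted p = 1.30e-04; 0.0310 with the mouse as a block). Pdgfra was at 39.4, 21.1, 29.9 and 11.5 CPM in untreated and 89.8, 212, 204, 150 and 164 CPM in exposed villi, against 68.2 ± 25.7 and 66.4 ± 10.6 CPM in crypts, a difference of 2.71 ± 0.45 (adjusted p = 1.30e-04; 0.0310 with the block).

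Among the 56, Emilin1, an elastic fibre protein, differed by 1.88 ± 0.39, Col6a2 by 1.96 ± 0.41, the laminins Lama5 and Lamb1 by 3.01 ± 0.65 and 2.171 ± 0.51, Col4a1 of the basement membrane by 1.40 ± 0.33, and Mmp2, which degrades it, by 2.11 ± 0.48. With the mouse as a block Emilin1 still passed (adjusted p = 0.0855), and Col6a2, Lama5, Lamb1, Col4a1 and Mmp2 did not (adjusted p from 0.101 to 0.257). Fgf7, a growth factor that fibroblasts give to epithelium, was at 28.9, 8.44, 9.96 and 2.29 CPM in untreated and 47.2, 103, 172, 201 and 139 CPM in exposed villi, against 19.3 ± 5.62 and 17.5 ± 4.68 CPM in crypts (3.53 ± 0.74; adjusted p = 0.00704, 0.0282 with the block). Against the low concentrations the villus rise of Fgf7 was 2.31 (adjusted p = 1.29e-07). Igfbp3 differed by 2.52 ± 0.42 through the crypt, where it was at 187 ± 59.5 CPM in untreated and 49.1 ± 25.03 CPM in exposed mice, while its villus change did not pass (adjusted p = 0.230). Lower detection of low probes in untreated villi touches this comparison too: Rbms3, Adora2a and Sox5 were at 0 to 3.07 CPM in untreated villi but at means of 12.6, 5.62 and 4.20 CPM in low-dose villi, and its part was not tested.

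Tyrobp, a signalling adaptor of myeloid cells, and Psap, a lysosomal protein, differed by 1.88 ± 0.35 and 1.56 ± 0.32, but not past the threshold with the mouse as a block (adjusted p = 0.143 and 0.123). Plin2 rose in the villus but was at 212 and 265 CPM in untreated and exposed crypts (1.73 ± 0.36; adjusted p = 0.00704, 0.0282 with the block). Osbpl1a, a sterol-binding protein, fell in the villus from 103, 123, 60.9 and 49.0 CPM to 6.71, 10.5, 6.22, 15.2 and 13.0 CPM and was at 14.7 ± 5.04 and 12.7 ± 4.49 CPM in crypts (-2.73 ± 0.56). Of the ribosomal protein list, 6 of 76 differed, among them Rps12 (1.76 ± 0.42) and Rpl4 (1.39 ± 0.34). For Rpl4 the untreated level was 700 CPM in the villus and 2397 CPM in the crypt, and the exposed levels were 3007 and 3928 CPM. None of the ribosomal genes Rps12, Rpl4 and Rpl19 passed with the mouse as a block (adjusted p from 0.128 to 0.235).

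**Figure D5:**
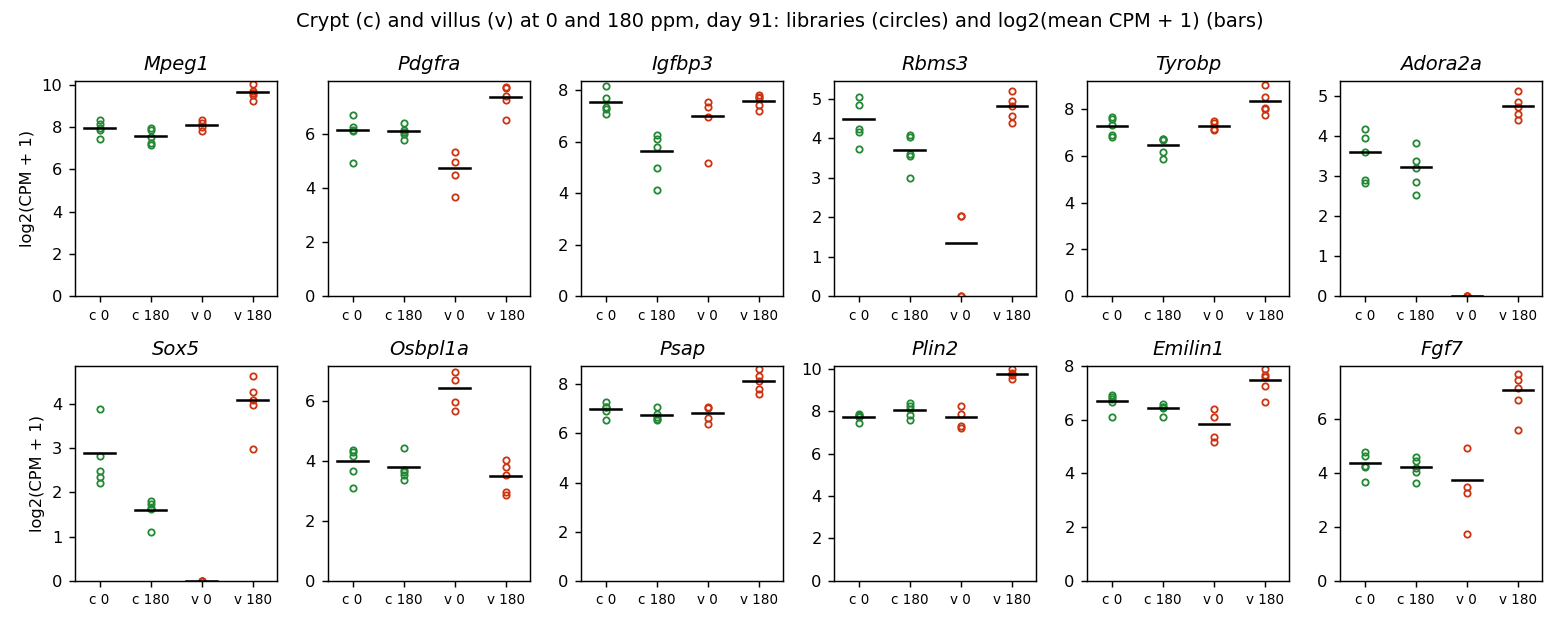
RNA of the 12 genes with the smallest p for a difference between the villus and crypt effects of 180 ppm, day 91, on a log2(CPM + 1) axis; c is crypt (green, n = 5 at each concentration), v is villus (red, n = 4 at 0 ppm and 5 at 180 ppm), circles are libraries and bars are log2 of the group mean plus 1. In 11 of the 12 genes the exposed villi are the highest group by mean, and in Osbpl1a the untreated villi are.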

How the data were processed

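The crypt or the villus was removed from duodenal sections by microdissection, the tissue that remained was scraped from the slide, and its RNA was measured by TempO-Seq. The deposited table held raw counts, the sequenced reads that the authors extracted for each probe from FASTQ files, with no normalization. The submitters' processing notes name bcl2fastq 2.17.1.14 and Bowtie, and the build of the probes is not given in the sources used here. A count of reads holds PCR copies, and 4 or 5 mice in a group limit precision. Groups came from the sample labels.

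All libraries were fitted in 28 groups with edgeR 4.0.16 in R 4.3.3 (TMM scaling, filterByExpr, quasi-likelihood F test, 1 dispersion for all probes, prior count 2), with Benjamini-Hochberg adjustment over probes and a threshold of 0.1. Fold changes are on the log2 scale, 180 ppm minus the other group. Each gene was represented by its most abundant probe over the series. Genes were named by rule: the 12 largest rises and 12 largest falls among genes past the threshold, without overlap between groups and with a mean of at least 20 CPM in the higher group, the 4 smallest p-values of each pathway list, and the most abundant markers of each cell type. Some genes that the rule names are not reported here. Outside the rule, Srebf2, Gclc, Hif1a, Alpi and B2m, and Hmgcs1, Hspe1, Rpl27a, Rpsa, Gbp2 and Gbp3, most of them shown for their promoters, were chosen after their values were seen. The libraries compared follow from the labels, while the choice of this comparison as a subject, its named members and the gene lists were made with earlier results of these data known. Crypt and villus libraries with the same number came from the same mouse, and in 7 of 9 pairs their deviations from the group means correlated above 0.1 (median 0.326), so the mouse was used as a block in an alternative fit. Promoters were RefSeq, GRCm38.p6, and gene positions GENCODE on GRCm38. Alternatives used DESeq2 1.42.0, other filters and scalings, covariates, thinning and left-out mice.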

Additional observations from a re-analysis of the deposited data

Results flagged for a closer look

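Of 78 groups of 4 or 5 villus libraries examined, 12 held 1 library far from the others by Dixon's criterion. For normally distributed values chance gives about 1 in 20, a rate that does not hold for levels at the floor. A single library with counts beside others at 0 is always flagged, as for Mcpt1, Unc93a and Aqp7, so the 12 cannot be set against that rate. Among untreated villi these were Il1rl1 at 18.9 CPM in mouse 3 (others 0 to 1.91), Mcpt1 at 17.2 CPM in mouse 7 (others 0) and Ceacam20 at 339 CPM in mouse 6 (others at most 254). Summed markers stood apart for Brunner gland and stomach in mouse 5 (69.1 CPM, others 0), and in mouse 7 for pancreatic acinar cells (64340 CPM, others 46.0 to 6606) and red blood cells (3.44 CPM, others 0). Among exposed villi, Mmp12 was low in mouse 483 (4.07 CPM, others 31.0 to 39.9) and Unc93a was detected in mouse 484 only (2.33 CPM). Mouse 488 was highest for Aqp7 (6.92 CPM, others 0), Slc28a2 (4.62 CPM, others 0 to 1.13) and Ceacam20 (39.2 CPM, others 6.05 to 14.4). Summed T cell markers were highest in mouse 490 (251.4 CPM, others 114 to 139).

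The effect of 180 ppm differed between villus and crypt for 56 genes by the interaction test in edgeR. The villus effect minus the crypt effect, on the log2 scale, was 1.92 for Mpeg1, 2.71 for Pdgfra, 2.52 for Igfbp3, 4.38 for Rbms3, 1.88 for Tyrobp, 5.97 for Adora2a, 6.28 for Sox5, -2.73 for Osbpl1a, 1.56 for Psap, 1.73 for Plin2, 1.88 for Emilin1 and 3.53 for Fgf7. Among genes named elsewhere it was 1.76 for Rps12, 1.39 for Rpl4, 1.27 for Rpl19 and 5.07 for Smox. With the mouse as a block, Tyrobp, Psap, Rps12, Rpl4, Rpl19 and Smox no longer passed (adjusted p from 0.123 to 0.235). Adora2a, Sox5 and Smox had no counts in untreated villi, so their fitted values depend on the prior count.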

How the results depend on the processing

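The 12 largest rises and 12 largest falls kept direction and call against 0 ppm in every alternative that gave a value (263 and 264 values), and against the low concentrations Mmp12 was lost in DESeq2 (adjusted p = 0.217). Of 1935 values of 88 list genes, 1855 kept direction and call, 73 no longer passed and 0 reversed. All these genes were chosen on the same libraries, by size, lack of overlap or small p. The choice thus largely fixed these outcomes. Genes past the threshold at 180 against 0 ppm numbered 2087 at equal depth, 2058 with detected probes as a covariate, 1876 without the libraries high in pancreatic markers (chosen after seeing the data), and 2320 to 3190 with 1 mouse left out. Against the low concentrations, 1474 passed without the pancreatic libraries and 2756 to 3809 with 1 mouse left out. For the difference between villus and crypt, 33 passed in a fit of its own libraries, 196 in DESeq2, 34 with the covariate, 34 at the stricter threshold of 0.05, 20 in the fit with a replicate block for each mouse, 0 without the pancreatic libraries (1424 at an unadjusted p under 0.05), and 17 (without exposed mouse 485) to 131 (without untreated mouse 7) with 1 mouse left out. It was 24 without mouse 490, 29 without mouse 3 and 31 without mouse 5 or mouse 6. Against 60 ppm, 19 passed in DESeq2, 2 with the covariate, 3 with probes summed, 1 without the pancreatic libraries and 0 to 1 with 1 mouse left out. The difference in detected probes was 3067 to 4073 with 1 mouse left out (exact permutation p up to 0.0571). Muc6, a gastric mucin read in untreated mouse 5, was at -4.48 (log2) and reversed to 0.27 without that mouse (from -4.92 with 1 other mouse left out). The cause was not tested. No paired analysis was possible for villus against villus because the groups hold different mice.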
